A study of Mus musculus with 4 samples.

Results

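The kinesin genes of embryonic mouse cortical cultures are described here after knockdown of DcpS, an enzyme that breaks down the cap structures left when mRNA has been degraded. The members are all genes of the deposited table whose symbol names a kinesin (Kif and a number, Kifc and a number), the kinesin-2 accessory subunit Kifap3 or a kinesin light chain (Klc1 to Klc4). This gave 44 of 32681 genes, of which 39 encode motor proteins and 5 encode the light chains and Kifap3. All of them are protein-coding in GENCODE M21 (GRCm38). The grouping by role is from textbook knowledge: 12 mitotic kinesins, 21 genes of axonal transport, 6 genes of the cilium and Hedgehog signalling, and 5 others. The transport group is broad: it also holds Kif17, known from dendrites, and Kifc2, known from neurites. The mitotic kinesin Cenpe has a symbol outside the rule and is counted with the spindle and cytokinesis partners.

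RNA was sequenced from 4 primary neuronal cultures made from the neocortex of wild-type CD-1 mice, an outbred strain, at embryonic day 13. All were grown in Neurobasal medium with B27. Of the 4, 2 received a control short hairpin RNA (shRNA) by transfection, and 2 received one that targets Dcps, whose sequence is not given. The labels name a single hairpin against Dcps. Effects of losing DcpS and of that hairpin on other transcripts therefore cannot be told apart. The share of cells transfected and the litters behind the cultures are not given, so the values are averages over whole cultures, and the p-values here cover the spread among these libraries alone, part of which may be technical. In such bulk samples, fewer cells of a type and less RNA per cell cannot be told apart.

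The libraries held 17754768 to 21793685 recovered reads. Values below are normalised read counts (reads divided by a size factor per library) unless another unit is named. Dcps itself was at 499.8 and 506.6 in the controls and at 114.5 and 119.6 with DcpS shRNA, which left 23.3% of the control mean. Neuronal markers were present throughout, with 18 of 18 above 0 in every library and a summed level of 120202 to 121721 in the controls against 116764 to 117577 after DcpS shRNA. Dividing cells were present too: the proliferation and spindle genes listed as mitotic partners, among them Mki67, Top2a and Aurkb, summed to 76741 to 78037 in the controls and 76420 to 81048 after DcpS shRNA.

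Kinesins are motors that hydrolyse ATP to walk along microtubules. In neurons the transport kinesins carry vesicles, mitochondria and other cargo outward from the cell body, with light chains and adaptors choosing the cargo. In dividing progenitors the mitotic kinesins separate spindle poles, align chromosomes and build the central spindle at which daughter cells part. A further set serves the primary or motile cilium.

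The most abundant kinesin genes were of the transport group. On the RPKM scale (reads divided by exonic length and by the library total), on which genes can be compared with each other, the highest control mean was that of the kinesin-1 heavy chain Kif5c, at 101.5. The light chain Klc1 followed at 82.8, the synaptic vesicle precursor motor Kif1a at 73.9 and the neuronal kinesin Kif21b at 61.9. On the same scale the mitotic kinesins ran from 2.22 for Kif14 to 15.3 for Kifc1 in the controls. The transport genes Kif13b, Kif13a, Kif1c, Kifc2 and Klc4 lay within that range, and Kif16b (0.966), Kif17 (0.467) and Klc3 (0.233) lay below every mitotic kinesin. Kif28, at 0 to 3.4 normalised reads per library, was at about the 3 reads that a count of 0 allows and was left out by the filter on low counts, so 43 members were tested. The tested kinesins together took 0.574% and 0.586% of the reads of the control libraries, against 0.603% and 0.561% after DcpS shRNA, so the groups overlapped.

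**Figure D1:**
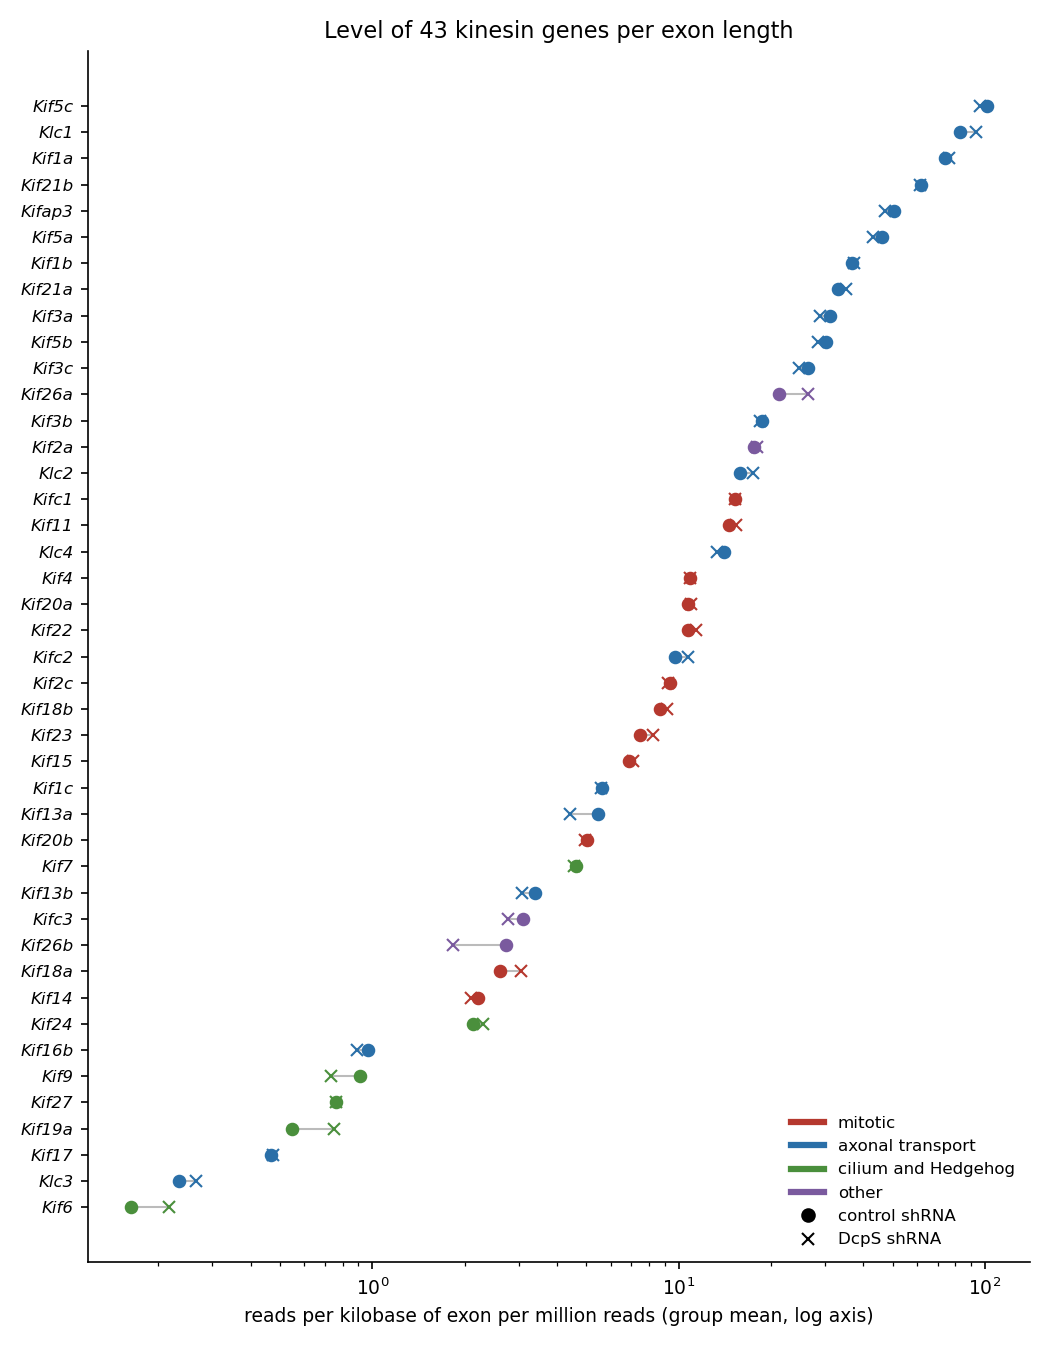
Level of each of 43 tested kinesin genes on a log axis, in RPKM. Dots are means of the 2 control libraries, crosses are means of the 2 DcpS shRNA libraries, and colours give the role. The 11 highest genes are all of the transport group, and most crosses lie close to their dots.

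The comparison asked which kinesin genes differ between DcpS shRNA and control shRNA. Of the 43 tested members, 2 rose (Kif26a and Klc1) and 2 fell (Kif26b and Kif13a), which is 9.30% (limma, Benjamini-Hochberg adjusted p under 0.05 over 18110 genes). Over all genes tested 5.79% were called, 2.14% higher and 3.65% lower, so the share among kinesins is near the background and is not a result about the family. The remaining 39 did not pass, and the 95% intervals of their log2 fold changes lay between −0.90 and 1.10, the widest being those of the sparse genes Klc3 and Kif6. The median log2 fold change of the 43 was −0.00, against 0.00 for all genes tested. The DcpS shRNA values lay wholly above the controls for 9 members and wholly below for 11. Over all genes tested the groups failed to overlap for 48.4%, 24.4% higher and 24% lower, so those 20 of 43 are again near the background.

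**Figure D2:**
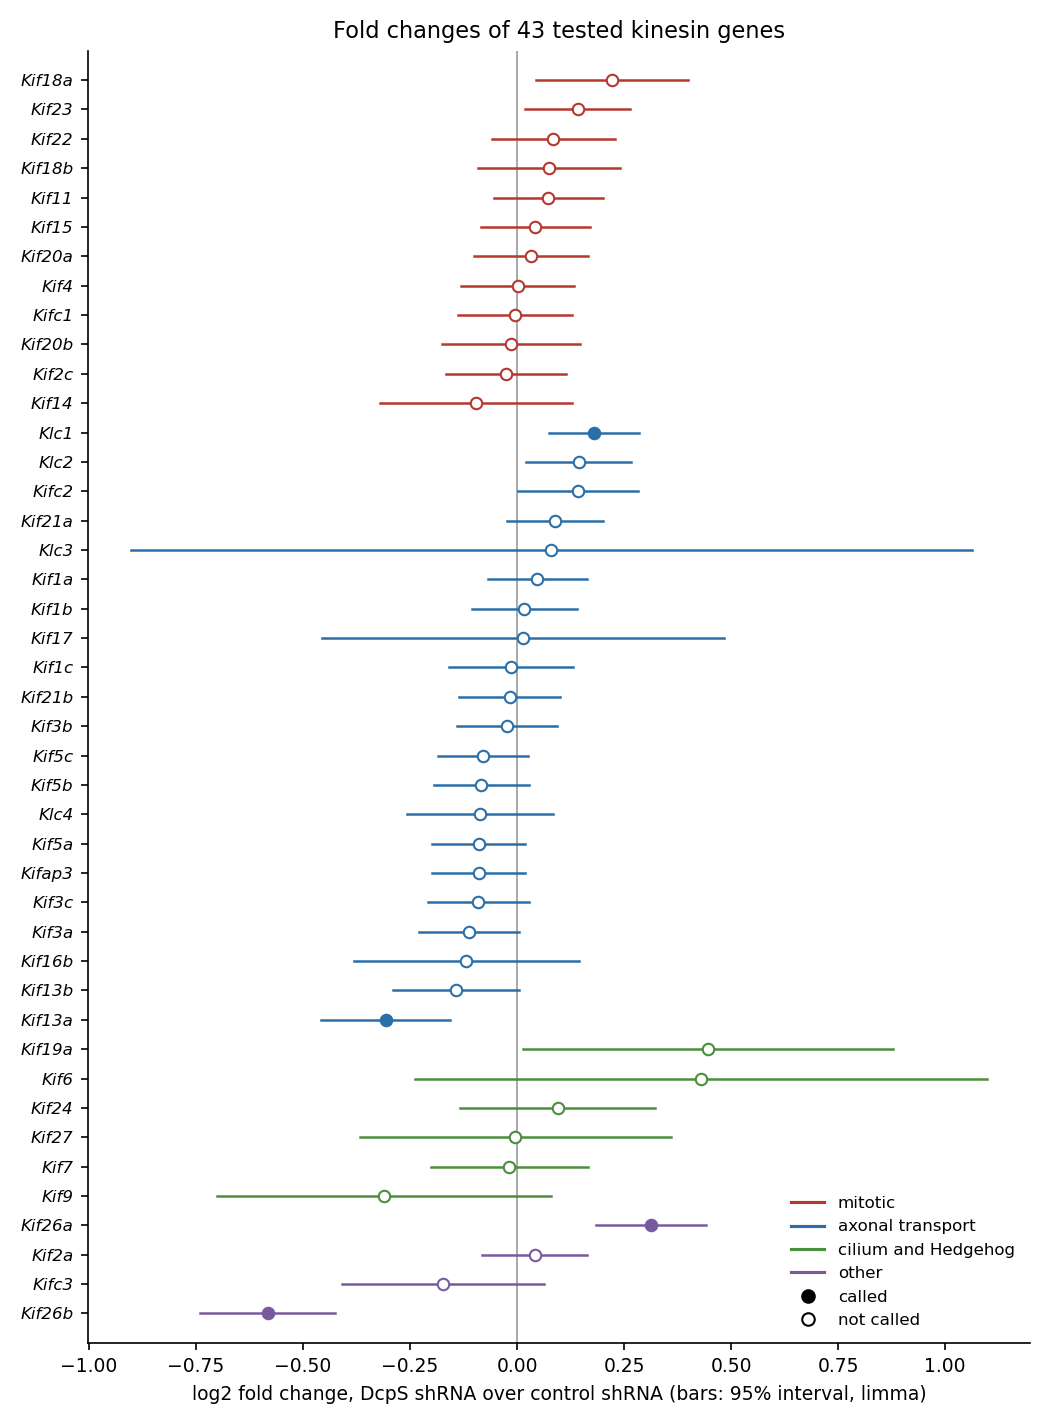
Log2 fold change of 43 kinesin genes, DcpS shRNA over control shRNA, with 95% intervals from limma. Filled dots mark Kif26a, Kif26b, Klc1 and Kif13a, the members called at an adjusted p under 0.05. Open dots, including all 12 mitotic kinesins, did not pass.

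Among the called members were both kinesin-11 genes, which changed in opposite directions, and Kif26b had the largest fold change of the 4. Kif26a and Kif26b encode atypical kinesins that bind microtubules without acting as ordinary ATP-driven motors. Kif26a is known as a brake on GDNF and Ret signalling in enteric neurons, and Kif26b for the adhesion of embryonic kidney mesenchyme. Kif26a (chromosome 12, 112146208 to 112181747, plus strand, GRCm38) was at 2951.2 and 2879.7 in the controls and at 3861.4 and 3394.9 with DcpS shRNA. Both DcpS shRNA libraries were above both controls, and the mean rose from 2915.5 ± 50.6 to 3628 ± 330 (SD, n = 2 in each). The log2 fold change was 0.31 (SE 0.06, limma, Benjamini-Hochberg adjusted p 0.00491).

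Kif26b (chromosome 1, 178529125 to 178939200, plus strand) was at 805.7 and 787.6 in the controls and at 556.9 and 507.3 with DcpS shRNA. Again the groups did not overlap: the means were 797 ± 12.8 for the controls and 532 ± 35.1 after DcpS shRNA (SD, n = 2 in each), 66.8% of the control level. Its log2 fold change was −0.58 (SE 0.07, limma, Benjamini-Hochberg adjusted p 0.00013). The number of Kif26a reads per Kif26b read was 3.66 in both controls and 6.93 and 6.69 with DcpS shRNA. Per exon length, Kif26a made up 88.6% of the pair in each control, against 93.6% and 93.4% after DcpS shRNA. Both calls held in each of the other settings tried, DESeq2 and edgeR included.

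Markers of other cells moved in the same libraries, in a test that called 5.79% of all genes. Of 19 genes of fibroblasts and extracellular matrix, 15 were lower and 0 higher (limma, adjusted p under 0.05). Their summed level was 22396 to 24228 in the controls against 13395 to 14120 after DcpS shRNA, with no marker at 0 in any library. Of 10 intermediate progenitor markers 4 were higher and 0 lower, with sums of 11487 to 12233 in the controls against 12734 to 13150. Radial glia and astrocyte markers gave 6 lower and 2 higher of 17 tested, with sums of 36042 to 37375 in the controls against 37149 to 37201. That sum is set mostly by its most abundant genes, and the median log2 fold change of the 17 was −0.12. Neuronal markers gave 3 higher and 2 lower of 18. The part of these markers in the kinesin calls was not tested. An antisense gene, Gm16564, shares 6.19% of the exonic length of Kif26b, and it held at most 1.1 normalised reads in any library.

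Klc1 encodes the main neuronal light chain of kinesin-1, which links the heavy chains to cargo. Klc1 (chromosome 12, 111758849 to 111807844, plus strand) was at 6771.8 and 6590.0 in the controls and at 7627.4 and 7507.3 with DcpS shRNA. The DcpS shRNA libraries were both higher, by about the same amount, and the means were 6681 ± 128.5 and 7567 ± 84.9 (SD, n = 2 in each). The log2 fold change was 0.18 (SE 0.05, limma, Benjamini-Hochberg adjusted p 0.0433). This call lies close to the threshold: it ended in edgeR (Benjamini-Hochberg adjusted p 0.0581), in DESeq2 (0.0750), without control 1 (limma, 0.241) and without control 2 (0.428).

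The other light chains did not pass. Klc2 was at 1321.7 and 1271.7 in the controls and at 1458.2 and 1406.9 with DcpS shRNA (log2 fold change 0.14, SE 0.06, limma, Benjamini-Hochberg adjusted p 0.185), also without overlap. Klc4 (−0.09, SE 0.08) and the sparse Klc3, at 7.8 to 20 normalised reads per library, overlapped between groups. Per exon length, Klc1 was 73.3% of all light chain in each control, against 74.4% and 75.9% after DcpS shRNA. Klc4 was 12.3% to 12.6% in the controls against 9.999% to 11.3%.

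Kif13a, a kinesin-3 motor that carries vesicles with the mannose-6-phosphate receptor to the plasma membrane, was the called transport motor. Kif13a (chromosome 13, 46749087 to 46929867, minus strand) was at 889.4 and 864.5 in the controls and at 748.7 and 670.5 with DcpS shRNA. All DcpS shRNA values lay below the controls, with means of 877 ± 17.6 in the controls and 710 ± 55.3 after DcpS shRNA (SD, n = 2 in each). The log2 fold change was −0.31 (SE 0.07, limma, Benjamini-Hochberg adjusted p 0.0165). The call ended in DESeq2 (Benjamini-Hochberg adjusted p 0.109), without control 1 (limma, 0.0815) and without DcpS shRNA 2 (0.0882). Its nearest relative Kif13b was at 866.6 and 889.1 in the controls and at 838.6 and 754.3 with DcpS shRNA, a log2 fold change of −0.14 (SE 0.07, limma, Benjamini-Hochberg adjusted p 0.290).

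**Figure D3:**
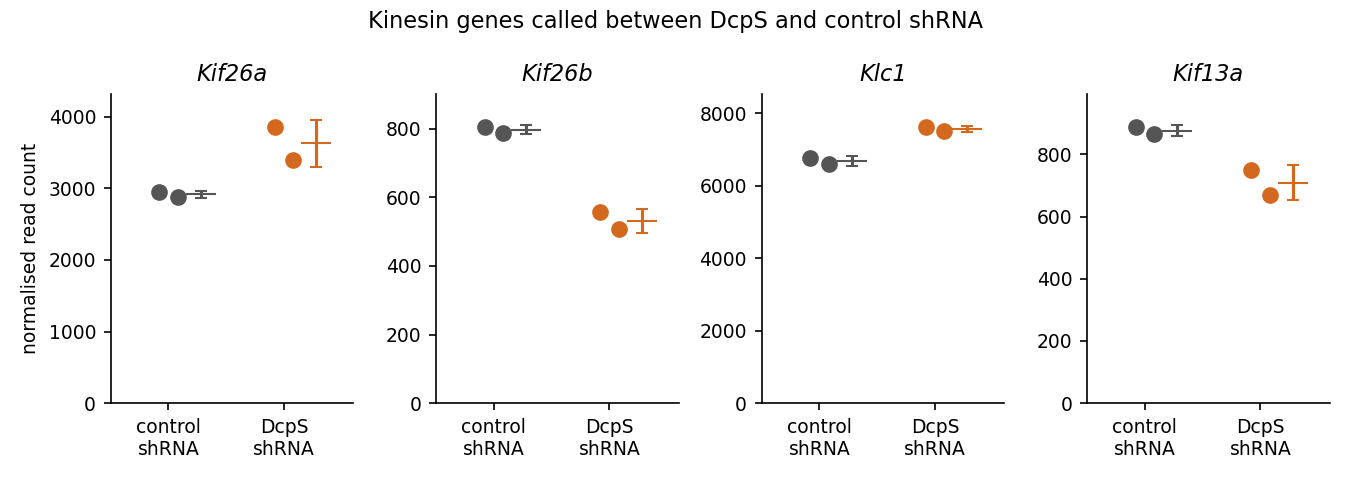
Normalised read count of the 4 called kinesin genes in each library, with the group mean and SD (n = 2) beside the dots. Kif26a and Klc1 are higher and Kif26b and Kif13a lower in both DcpS shRNA libraries, and no group overlaps the other.

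The annotated 3′ UTR of every tested kinesin was searched on the sense strand for ACGTGCA and CACGTGC. These are 7-base words, overlapping each other by 6 bases, that an earlier look at these data had found among lower genes, so the shares given here are a description. At least 1 word was in 5 of 43 kinesins (11.6%) and in 8% of the 13708 tested genes with a scanned UTR. It was in 33.1% of 646 called lower genes and in 6.25% of 368 called higher genes. Among the 4 called kinesins only Kif13a holds a word, and among those not called Kif13b, Kif1b, Kif1c and Kif3b do. Both KIF13 sites are shown because these paralogs carry different words, and they were picked with the values known. Both genes had values below the controls, but Kif13b was not called (limma, Benjamini-Hochberg adjusted p 0.290). Capitals mark the word, with 10 bases on either side in the transcript's sense (GENCODE M21, GRCm38). The Kif13a site is at chr13:46749896-46749922, minus strand, and the Kif13b site at chr14:64807300-64807326, plus strand.
Kif13a: gctaccaagcCACGTGCtgcccttggt
Kif13b: gtttgctgagACGTGCAtggcctttga

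A word in a UTR is a match of letters, not a measured site. Kif1b, Kif1c and Kif3b, with a word each, had log2 fold changes of 0.02, −0.01 and −0.02, and Kif26b, the kinesin with the largest fall, has none. The part of these words in the kinesin values was not tested.

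Among mitotic kinesins 0 of 12 were called (limma, adjusted p under 0.05), and 2 had an unadjusted p under 0.05 (16.7%). Over all genes tested these shares were 5.79% and 18.7%, so both counts are near the background. Neither edgeR nor DESeq2 called any of them. The largest difference was that of Kif18a, which aligns chromosomes at the metaphase plate. It was at 508.3 and 506.6 in the controls and at 637.8 and 549.8 with DcpS shRNA (log2 fold change 0.22, SE 0.08, limma, Benjamini-Hochberg adjusted p 0.151). Its groups did not overlap, and without DcpS shRNA 2 it passed (limma, Benjamini-Hochberg adjusted p 0.0299). Kif23, the motor of the centralspindlin complex in cytokinesis, was at 1158.3 and 1179.4 in the controls and at 1293.8 and 1286.2 with DcpS shRNA (0.14, SE 0.06, limma, Benjamini-Hochberg adjusted p 0.190).

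The other 10 mitotic kinesins overlapped between groups, so 2 of 12 did not, where 48.4% of all genes tested did not. Kif11, which pushes spindle poles apart, was the most abundant of the mitotic group in reads, at 2089.4 and 2227.4 in the controls and at 2378.6 and 2164.6 with DcpS shRNA (log2 fold change 0.07, SE 0.06). Kif15, its partner in keeping the spindle bipolar, differed by 0.04 (SE 0.06). The chromokinesins, which bind chromosome arms, were Kif22 at 0.08 (SE 0.07) and Kif4 at 0.00 (SE 0.06). The cytokinesis motors Kif20a (0.03, SE 0.06), Kif20b (−0.01, SE 0.08) and Kif14 (−0.10, SE 0.11) and the microtubule depolymerase Kif2c (−0.03, SE 0.07) spread to either side of 0. For the 12 mitotic genes the 95% intervals lay between −0.32 and 0.40. Kifc1, a minus-end motor that focuses spindle poles, differed by −0.01 (SE 0.06). Its transcripts share 38.6% of their 50-base words with Kifc5b, so its reads are uncertain.

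The promoters of the mitotic kinesins shared a motif that did not enter the choice of members. Windows from 250 bases before to 50 bases after the annotated start (RefSeq, GRCm38.p6) were searched on both strands for TTTGAA, the core of the cell cycle genes homology region (CHR), and for CCAAT, the box bound by NF-Y. TTTGAA was in 10 of the 11 mitotic kinesins with a window (90.9%), all but Kif18a, and in 17.9% of 32851 windows of all genes. CCAAT was in 7 of 11 (63.6%) and in 37.4% of all windows. The median GC content was 60.7% in the mitotic windows and 52.7% in all windows. In 8 of the 11 genes a TTTGAA match began within 20 bases of the start. No match of either motif overlapped a match of the other in the mitotic windows. Of 36 mitotic partner genes with a window, 26 (72.2%) held TTTGAA and 26 held CCAAT.

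The stretches below run from 70 bases before to 25 bases after the annotated start, in the direction of transcription. Those of 5 mitotic kinesins are shown for the position of their matches, and those of the called genes Klc1, Kif26a and Kif26b for comparison. Capitals mark both motifs. TTTGAA on the other strand reads as TTCAAA here, and CCAAT on the other strand reads as ATTGG. The positions are chr19:37376312-37376406 (plus) for Kif11, chr9:122951011-122951105 (plus) for Kif15 and chr11:102925100-102925194 (minus) for Kif18b. They are chr7:127042396-127042490 (minus) for Kif22 and chr9:61946775-61946869 (minus) for Kif23. Those of the called genes are chr12:111758798-111758892 (plus) for Klc1, chr12:112146138-112146232 (plus) for Kif26a and chr1:178529055-178529149 (plus) for Kif26b.
Kif11: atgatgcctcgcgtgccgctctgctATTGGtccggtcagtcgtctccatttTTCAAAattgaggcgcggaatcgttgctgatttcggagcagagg
Kif15: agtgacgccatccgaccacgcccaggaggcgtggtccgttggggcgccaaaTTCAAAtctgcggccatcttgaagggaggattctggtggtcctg
Kif18b: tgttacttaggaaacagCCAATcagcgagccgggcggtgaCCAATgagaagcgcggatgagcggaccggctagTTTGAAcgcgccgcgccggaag
Kif22: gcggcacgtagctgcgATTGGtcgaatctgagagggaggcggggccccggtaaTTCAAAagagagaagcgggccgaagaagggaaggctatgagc
Kif23: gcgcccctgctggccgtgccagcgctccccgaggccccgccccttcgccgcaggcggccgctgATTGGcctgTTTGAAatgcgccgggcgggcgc
Klc1: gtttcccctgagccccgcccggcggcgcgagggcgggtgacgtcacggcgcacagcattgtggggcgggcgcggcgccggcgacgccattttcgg
Kif26a: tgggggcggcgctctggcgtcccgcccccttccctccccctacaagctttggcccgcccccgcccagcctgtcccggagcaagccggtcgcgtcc
Kif26b: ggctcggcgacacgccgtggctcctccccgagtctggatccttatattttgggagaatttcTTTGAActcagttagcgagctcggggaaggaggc

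In the stretches of Kif11 and Kif22 an NF-Y box match is followed by a CHR match that begins at positions −19 and −17. In Kif23 and Kif18b the CHR match begins at bases 3 and 4 of the transcript. The window of Kif26b holds a CHR match at position −9 and an NF-Y box match at position −73, outside the stretch shown, while the windows of Klc1 and Kif26a hold neither motif. Of the 21 transport genes 15 have a window here, against 11 of 12 mitotic genes, so too many are missing for a share over the transport group and that check is void. Among those 15, TTTGAA was in 1 (Kif1a) and CCAAT in 6.

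**Figure D4:**
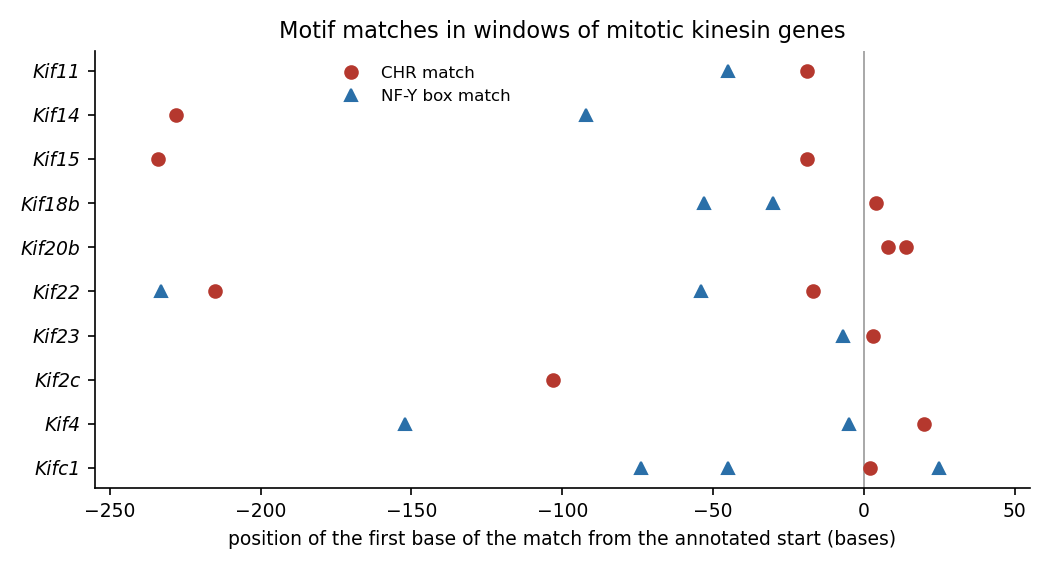
Position of motif matches on either strand in the promoter windows of 10 mitotic kinesin genes, in bases from the annotated start. Red dots are CHR matches and blue triangles NF-Y box matches. In 8 genes a red dot lies within 20 bases of the start.

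Among the 21 transport genes Klc1 was higher and Kif13a lower, and 19 did not pass. The 2 calls are 9.52%, where 5.79% of all genes tested were called, so this count is near the background. The kinesin-1 heavy chains, which form the motor that Klc1 serves, all had slightly lower values with DcpS shRNA. Kif5c was at 14072.9 and 14658.9 in the controls and at 13686.6 and 13506.0 with DcpS shRNA (log2 fold change −0.08, SE 0.05, limma, Benjamini-Hochberg adjusted p 0.430). Kif5a differed by −0.09 (SE 0.05) and Kif5b by −0.08 (SE 0.05), and in all 3 genes both DcpS shRNA libraries were below both controls without passing the test. Of the 21 transport genes 9 lay wholly below the controls and 4 wholly above, where over all genes tested 24% and 24.4% did. The proportions of the 3 heavy chains barely moved. Per exon length Kif5c was 57.1% to 57.2% of kinesin-1 heavy chain in the controls against 57.0% to 57.6% after DcpS shRNA, and Kif5a was 25.7% to 26.0% in the 4 libraries.

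Kinesin-2, the heterotrimer of Kif3a, Kif3b or Kif3c and Kifap3, carries cargo in axons and cilia. Kif3a was at 2209.1 and 2221.3 in the controls and at 2113.3 and 1986.9 with DcpS shRNA (log2 fold change −0.11, SE 0.06, limma, Benjamini-Hochberg adjusted p 0.288). Kifap3 (−0.09, SE 0.05) and Kif3c (−0.09, SE 0.06) likewise lay below the controls in both libraries without passing, and Kif3b (−0.02, SE 0.05) overlapped. Over all genes tested 24% lay wholly below the controls. Without DcpS shRNA 1, Kif3c passed (−0.16, limma, Benjamini-Hochberg adjusted p 0.0476). Kif17, a homodimeric kinesin-2 of dendrites, was low at 40.0 to 45.8 reads.

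The kinesin-3 motors of synaptic vesicle precursors and mitochondria were abundant and overlapped between groups. Kif1a was at 13418.3 and 13898.0 in the controls and at 14806.8 and 13455.8 with DcpS shRNA, a log2 fold change of 0.05 with a 95% interval from −0.07 to 0.16. Kif1b differed by 0.02 (SE 0.06) and Kif1c by −0.01 (SE 0.07). Kif1a was 63.3% to 64.3% of the KIF1 level per exon length in the 4 libraries. The endosomal motor Kif16b, at 171.3 to 175.8 in the controls and 154.2 to 165.4 after DcpS shRNA, differed by −0.12 (SE 0.12).

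The kinesin-4 genes Kif21a and Kif21b encode neuronal motors that also slow microtubule growth. Kif21b, at 14014.5 to 15572.8 reads, had the highest control mean of any kinesin in reads and differed by −0.02 (SE 0.06). Kif21a was at 4251.1 and 4254.9 in the controls and at 4684.5 and 4364.9 with DcpS shRNA (0.09, SE 0.05, limma, Benjamini-Hochberg adjusted p 0.404). Kifc2, a minus-end motor of neurites, was at 747.8 and 768.1 in the controls and at 850.4 and 822.5 with DcpS shRNA (0.14, SE 0.07, limma, Benjamini-Hochberg adjusted p 0.260).

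Cilium and Hedgehog kinesins gave 0 calls among 6 (limma, adjusted p under 0.05), with 1 at an unadjusted p under 0.05 and none called by edgeR or DESeq2. With 6 genes these counts are near the shares of all genes tested (5.79% and 18.7%). The gene with an unadjusted p under 0.05 was Kif19a, which limits the length of motile cilia, at 43.7 and 44.1 in the controls and at 63.6 and 57.0 with DcpS shRNA (log2 fold change 0.45, SE 0.20, limma, Benjamini-Hochberg adjusted p 0.253). Kif9, of motile cilia, was at 70.3 and 85.1 in the controls and at 61.8 and 62.6 with DcpS shRNA (−0.31, SE 0.18). Kif7, a Hedgehog regulator of the primary cilium, differed by −0.02 (SE 0.09), and Kif24, which holds back cilium growth, by 0.09 (SE 0.11). Kif27, at 74.9 to 82.7 normalised reads, and Kif6, at 15.2 to 27.3, were sparse. Of 15 tested ciliated ependymal and choroid plexus markers 2 were lower and 0 higher, with sums of 6422 to 6637 in the controls against 5021 to 5409. Both lower genes are known from choroid plexus: Ttr, at 5021.6 to 5195.3 in the controls against 3747.8 to 4104.6, made up most of the sum, and Aqp1 was the other. Of the 15 tested markers, 4 had a log2 fold change above 0 and 11 below. Motile cilium genes went both ways without passing. Rsph1 (−0.66, SE 0.26), Dnah9 (−0.45, SE 0.18), Rsph4a (−0.40, SE 0.34) and Tekt1 (−0.25, SE 0.24) were lower. So were Gmnc (−0.21, SE 0.22), Dnah11 (−0.20, SE 0.50) and Ccdc39 (−0.17, SE 0.09). Dnah5 (0.42, SE 0.36), Hydin (0.37, SE 0.26) and Ccdc40 (0.09, SE 0.11) were higher. These and Foxj1 are named here after their values were seen. Foxj1, the master regulator of motile cilia, was higher too, without passing. It was at 130.2 and 128.2 in the controls and at 174.4 and 178.8 with DcpS shRNA (log2 fold change 0.45, SE 0.13, limma, Benjamini-Hochberg adjusted p 0.0502). The part of these markers in the values of the cilium kinesins was not tested. Of the remaining members, the depolymerase Kif2a differed by 0.04 (SE 0.06) and the minus-end motor Kifc3 by −0.17 (SE 0.11).

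The genes that work with kinesins gave few calls. Of 42 tested cargo adaptors and regulators, 3 were lower, 1 was higher and 38 did not pass. That is a share of 9.52% against 5.79% of all genes, with a median of 0.04. In limma 10 of the 42 had an unadjusted p under 0.05 (23.8%, against 18.7% of all genes tested). Trak1, which couples mitochondria to kinesin-1, was at 4586.5 and 4700.0 in the controls and at 3349.9 and 3275.4 with DcpS shRNA. Both DcpS shRNA libraries lay far below both controls, with a log2 fold change of −0.49 (SE 0.05, limma, Benjamini-Hochberg adjusted p 1.90e-05), and its 3′ UTR holds ACGTGCA. This call held in every other setting tried. The receptor adaptor Grip1 (−0.29, SE 0.07) and the exchange factor Kalrn (−0.26, SE 0.07) were lower, and the kinesin-1 recruiter Map7d2 was higher (0.29, SE 0.08). The 3′ UTRs of these 3 hold neither word. None of these 3 passed without control 1 (limma, Benjamini-Hochberg adjusted p 0.0971 for Grip1, 0.124 for Kalrn and 0.124 for Map7d2), without control 2 (0.0868, 0.108 and 0.211) and without DcpS shRNA 2 (0.159, 0.0945 and 0.129). That of Map7d2 also ended without DcpS shRNA 1 (0.0604) and with no expression filter (0.0531). In DESeq2 neither Grip1 (Benjamini-Hochberg adjusted p 0.177) nor Map7d2 (0.312) passed.

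Dynein, the motor that runs the opposite way, and its activator dynactin gave 2 lower and 1 higher of 34 tested. That is 8.82% against 5.79% of all genes tested, with a median of 0.03. In limma 10 of the 34 had an unadjusted p under 0.05 (29.4%, against 18.7% of all genes tested). The dynein adaptor Bicd1 was at 1141.2 and 1019.4 in the controls and at 856.8 and 828.1 with DcpS shRNA (−0.36, SE 0.07, limma, Benjamini-Hochberg adjusted p 0.00447), and holds both words in its 3′ UTR. The neuronal intermediate chain Dync1i1 was lower (−0.31, SE 0.07) and the actin-capping subunit Capza1 higher (0.20, SE 0.05). Neither gene holds a word in its 3′ UTR, and words in partners that were not called are not given here. Without control 1 the calls of Bicd1 (limma, Benjamini-Hochberg adjusted p 0.0721) and Capza1 (0.180) ended, without control 2 those of Dync1i1 (0.175) and Capza1 (0.268), and without DcpS shRNA 2 that of Capza1 (0.0581). Capza1 did not pass in DESeq2 either (Benjamini-Hochberg adjusted p 0.109). Of 42 spindle and cytokinesis partners 30 had a log2 fold change above 0 and 12 below. DcpS shRNA values lay wholly above the controls for 15 and wholly below for 2, where 24.4% and 24% of all genes tested did. In limma 7 of the 42 had an unadjusted p under 0.05 (16.7%, against 18.7% of all genes tested). Of the 42 partners 0 were called (limma, adjusted p under 0.05), with 0 in edgeR and DESeq2 and a median of 0.04. With 1 library left out at a time, 0 to 2 of them passed.

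Set against each other, mitotic kinesins had a median log2 fold change of 0.04 and transport kinesins of −0.02, with 8 of 12 and 8 of 21 above 0. The difference of the medians was 0.06, and the median over all genes tested was 0.00. Genes are not replicates of a condition, so this contrast has no test. With 1 library left out at a time it was 0.06 to 0.09.

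Each of these medians differed more between the DcpS shRNA libraries than it did from the other. The median of the mitotic kinesins from the control mean was 0.10 in DcpS shRNA 1 and −0.01 in DcpS shRNA 2, and that of the transport kinesins 0.01 and −0.09. Both medians moved together. The spread within groups (pooled SD over libraries) was 0.0541 for the mitotic median, 0.0479 for the transport median and 0.0062 for their difference. All 12 mitotic and 19 of 21 transport genes were higher in DcpS shRNA 1 than in DcpS shRNA 2, 39 of 43 kinesins (90.7%). Over all tested genes with a known exonic length the share was 49.6%. With genes split by exonic length into 4 equal bins, it was 41.8% in the shortest, with a median length of 1008 bases. The bins between gave 41.5% (median 2861 bases) and 49.0% (4824 bases), and the longest gave 66.0% (8554 bases). Kinesin genes are long, with a median exonic length of 6393 bases. Between the controls, 19 of 43 kinesins were higher in control 1. The part of exonic length in the kinesin values was not tested.

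**Figure D5:**
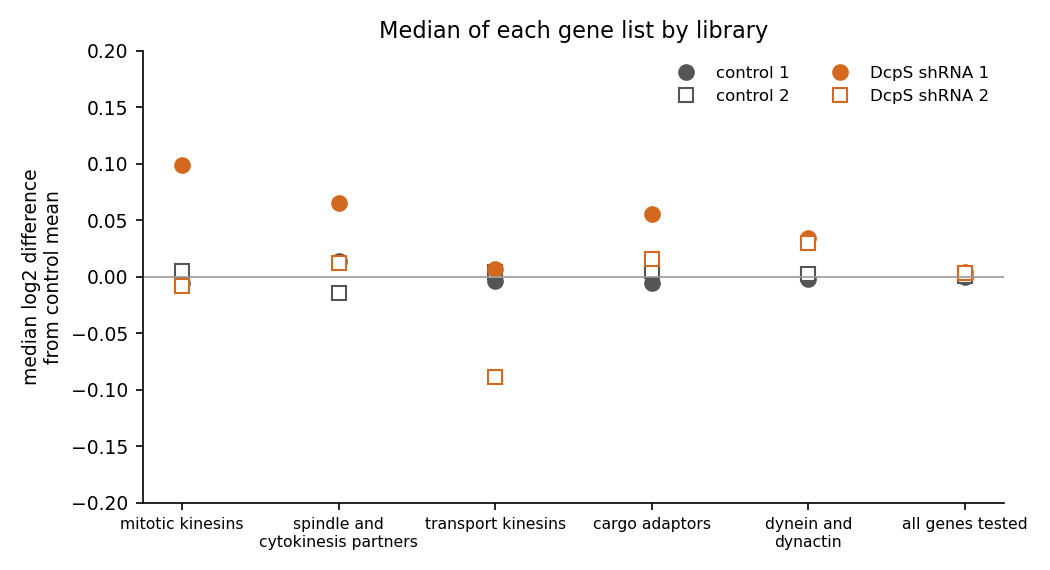
Median log2 difference from the control mean for 6 sets of genes, by library. Grey marks are controls and orange marks DcpS shRNA, with filled circles for library 1 and open squares for library 2. DcpS shRNA 1 lies above DcpS shRNA 2 for mitotic (0.10 against −0.01) and transport kinesins (0.01 against −0.09), while the libraries lie together over all genes tested.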

How the data were processed

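The deposited table gives 1 value per gene and library. Its values are a signal, reads per gene that the authors divided by a factor per library: every value was a whole multiple of its column's smallest positive value (100% within 0.001), and the implied factors equalled median-of-ratios size factors. Per the submitters' processing notes, HISAT2 2.2.0, SAMtools 1.3.1, Picard, featureCounts and DESeq2 were used with GRCm38. The sources used here do not state the annotation or the strand setting.

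Because the values were already scaled, the test was limma 3.58.1 (R 4.3.3) on log2(value + 1), a scale that understates changes of low genes. It compared the groups with no covariate, with an intensity trend and robust moderation, and two-sided p-values were adjusted by Benjamini-Hochberg with a threshold of 0.05. The filter, edgeR's filterByExpr with a minimum count of 10 on recovered reads, left 18110 genes. An exact permutation test of 2 against 2 cannot go below 0.333. Alternatives were edgeR 4.0.16 (1045 genes called) and DESeq2 1.42.0 (453) on recovered reads, other pseudocounts, filters and scalings, the replicate block and each library left out. The script was tested on simulated reads. RPKM values were computed from recovered reads and GENCODE M21 union exons. Promoter windows matched 34 of 44 members.

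Members and lists were chosen with earlier results of these data known. Every member may be named, and from each other list up to 4 called genes of smallest p per direction. Mki67, Top2a and Aurkb are named as examples of their list. Cenpe is named as a kinesin outside the symbol rule, and the motile cilium markers after their values were seen. Marker lists covered neurons, radial glia and astrocytes, intermediate progenitors, fibroblasts and matrix, endothelial and mural cells, microglia and macrophages, oligodendrocyte lineage, and ciliated ependymal and choroid plexus cells. Limits at 0 cover counting error only.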

Additional observations from a re-analysis of the deposited data

How the results depend on the processing

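The count of called kinesins was 4 in the test described, 3 in edgeR, 2 in DESeq2 and 2 to 5 when 1 library was left out. Over all genes the count went from 1048 to 453 in DESeq2, to 1626 with the replicate block in limma, and to 670 without control 1, 594 without control 2, 1439 without DcpS shRNA 1 and 1148 without DcpS shRNA 2. Without 1 library the median ranged from −0.0085 to 0.0993 for mitotic and from −0.0887 to 0.0068 for transport kinesins, and their difference from 0.0633 to 0.0925. With a minimum mean of 1 CPM that difference was 0.0889. The cause was not tested, except that leaving out a library means fewer samples. The labels number the libraries as sets 1 and 2 in both groups without saying whether a set was prepared together, and the deviations of same-numbered libraries showed little correlation over genes (0.0429), so they were not treated as pairs. The replicate block in limma called the same 4 kinesins, and in edgeR 3, without Klc1 (Benjamini-Hochberg adjusted p 0.0509).

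For members that were not called, signs near 0 turned. Kif4 was at −0.0001 in edgeR, −0.0034 with TMM scaling and −0.0008 with the replicate block in edgeR. Without 1 library, log2 fold changes ranged from −0.0561 to 0.0585 for Kif4, −0.0697 to 0.103 for Kif1b, −0.0797 to 0.0444 for Kif7, −0.0687 to 0.0403 for Kif1c and −0.0128 to 0.162 for Kif18b. Ranges were −0.0749 to 0.0664 for Kif27, −0.0193 to 0.102 for Kif2a, −0.0542 to 0.0068 for Kif3b, −0.545 to 0.705 for Klc3 and −0.0477 to 0.0377 for Kifc1. Ranges were −0.0916 to 0.0637 for Kif20b, −0.0213 to 0.117 for Kif1a, −0.0728 to 0.262 for Kif24, −0.0218 to 0.107 for Kif15 and −0.0933 to 0.0588 for Kif21b. Ranges were −0.282 to 0.0912 for Kif14, −0.0531 to 0.0021 for Kif2c, −0.0829 to 0.109 for Kif17 and −0.198 to 0.0246 for Klc4.

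Exons shared with other genes were 15% or more of the length of Kif3c (35.3%), Kif20a (29.3%), Klc3 (28.1%), Kifc3 (24.1%), Kif2a (19.2%), Kif7 (19.1%) and Kif4 (15.1%), all on the opposite strand, so their reads are uncertain if strand was not used.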

Other observations

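Markers of 3 other kinds of cell were counted with the same test (limma, Benjamini-Hochberg adjusted p under 0.05), by which 5.79% of all genes were called. Of 9 tested endothelial and mural markers 3 were lower and 0 higher (33.3%), with sums of 824.7 to 900.4 in the controls against 526.3 to 554.2. Of 13 tested microglia and macrophage markers 1 was higher and 0 lower (7.69%), with sums of 543.5 to 549.7 against 559.7 to 591.2. Of 8 tested oligodendrocyte lineage markers 1 was higher and 1 lower (25%), with sums of 848.5 to 878.9 against 834.1 to 863.8. The lower one, Pdgfra, is also in the list of fibroblasts and matrix, so that call is counted in both. Cspg4, which was not called, is also in the endothelial and mural list.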
